A study of Homo sapiens with 3 samples.

Results

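The miRNAs mir-320a (hsa-mir-320a) and mir-484 (hsa-mir-484) are made from hairpins known to arise directly from capped RNA polymerase II transcripts. Each has 1 listed window of 50 nt, so 2 of the 1533 windows in the deposited table, and 2 of its 29 miRNA windows, were described. The windows were picked out by gene name, with the read numbers of the pair known from earlier work on these data. The cells, labelled HEK293 and given as HEK293T-Rex in the study's methods, were a human embryonic kidney line. All overexpressed the DIS3L2 D391N mutant from a stably integrated and inducible Flag-tagged construct. RNA bound to this mutant was recovered by crosslinking and immunoprecipitation (CLIP) in 3 replicate libraries of a single group, with no second condition to compare. The authors summed the counts over the libraries, so no replicate spread could be computed. Every interval below is a 95% Wilson or Newcombe interval that covers counting error only, as copies of 1 molecule made by PCR cannot be told from separate molecules. The identity of the cells could not be checked against marker genes in a table of this kind.

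DIS3L2 is a cytoplasmic 3′ to 5′ exoribonuclease that recognises RNAs with an untemplated oligo(U) tail, and D391N binds such RNAs without degrading them. Most miRNA precursors are cut out of a longer primary transcript by Drosha in the nucleus and then by Dicer in the cytoplasm. The precursors of miR-320a and miR-484 are instead transcribed with their 5′ end at or near the start of transcription, carry a cap, leave the nucleus through exportin 1 and are cut by Dicer without Drosha. Uridyltransferases such as TUT4 and TUT7 add uridines to the 3′ ends of many precursors.

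The mature strand and the hairpin of mir-484 are shown because the place of the window on the hairpin is described from them. In miR-484 the capitals mark the seed, bases 2 to 8, and in the hairpin they mark the bases inside the listed window. Both are RefSeq sequences, and the hairpin occurs unchanged in GRCh37 at chr16:15737151-15737229 on the plus strand.
hsa-miR-484: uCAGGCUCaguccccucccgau
hsa-mir-484 hairpin: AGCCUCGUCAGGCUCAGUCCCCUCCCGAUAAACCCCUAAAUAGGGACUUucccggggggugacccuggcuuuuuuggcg
Of the 27 listed miRNAs, 26 had a mature sequence in the RefSeq table, and no other mature strand among these 26 carried the seed of miR-484. In the whole table of 2370 mature names it was found in miR-484, miR-3155a and miR-3155b. The mir-320a hairpin is named only.

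The window of mir-320a (GRCh37, chr8:22102450-22102499, minus strand) held 2456 unique reads, of which 1837 ended in an untemplated run of T and are called uridylated or U+ reads. Its U+ fraction, the uridylated reads over the unique reads, was 74.8% (interval 73.0 to 76.5%). For mir-484 (chr16:15737150-15737199, plus strand) 1666 of 2386 unique reads were uridylated, and the U+ fraction was 69.8% (interval 68.0 to 71.6%). Untailed reads numbered 619 for mir-320a and 720 for mir-484, so there were 2.97 and 2.31 uridylated reads for each untailed read. The depths of both windows were thus nearly equal, and most reads of both windows were tailed. Bound RNA was cut with RNase T1 before the adaptors were ligated, so an untailed read can be an inner fragment of a tailed RNA. The share of RNAs with a tail is therefore unknown. The U+ fraction was 4.97 percentage points higher for mir-320a (interval 2.45 to 7.49, Fisher's exact test on the reads, two-sided, p = 0.000115). This test compares 2 windows of pooled libraries. With every count divided by 10, as if each molecule had been read 10 times, the difference was 4.92 points and was no longer detectable (Fisher's exact test, two-sided, p = 0.264).

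**Figure D1:**
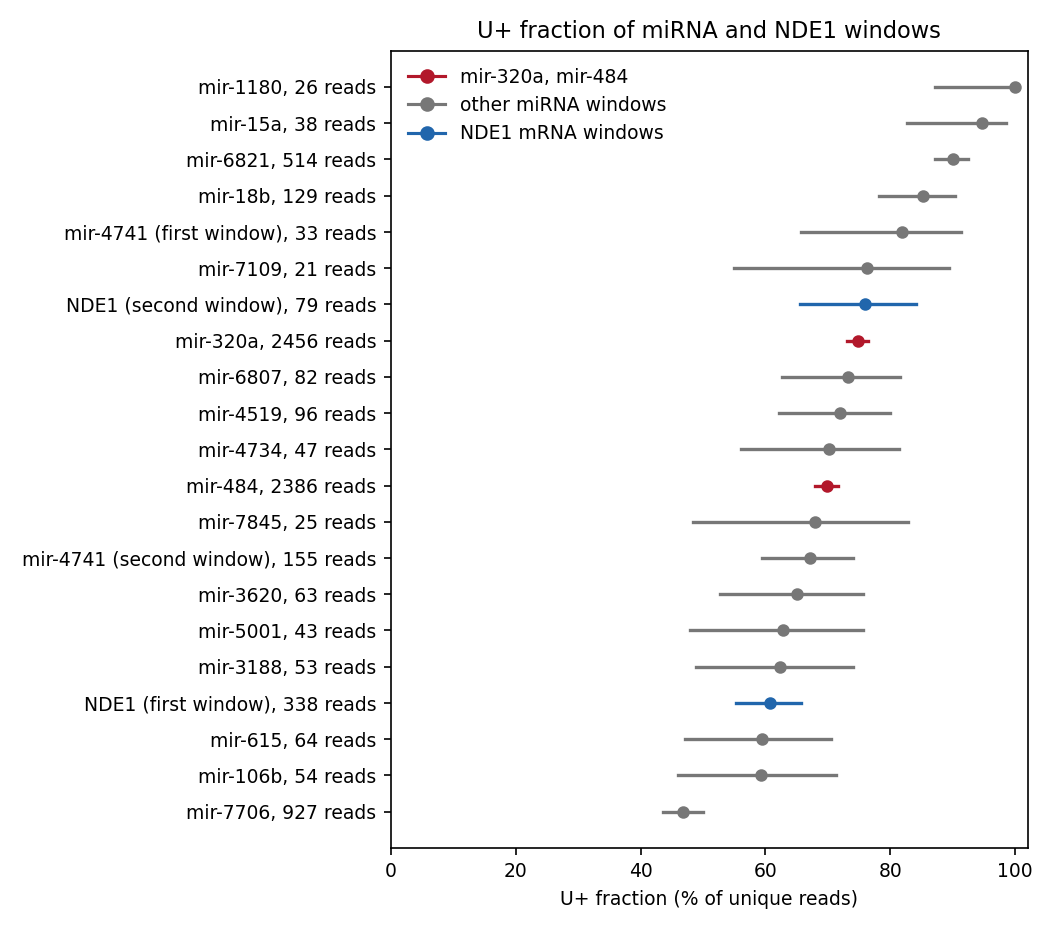
U+ fraction (% of unique reads) of the mir-320a and mir-484 windows, the 17 other miRNA windows without let-7 or mir-98, and the 2 windows of NDE1, with the unique reads beside each name. Points are pooled values and bars are 95% Wilson intervals. mir-320a at 74.8% and mir-484 at 69.8% have the narrowest intervals and lie in the middle of the order.

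The comparison set was the 17 miRNA windows, in 16 hairpins, that belong neither to the pair nor to the let-7 family with mir-98. These windows were shallow, with 21 to 927 unique reads and a median of 54. The window of mir-320a had 45.5 times and that of mir-484 44.2 times this median, and each had over 2.5 times the reads of the deepest, mir-7706. No comparison window reached 1000 unique reads, and of all windows 6.72% did. Together the pair held 3503 of the 5069 uridylated reads of the 19 windows, a share of 69.1% (interval 67.8 to 70.4%), and 67.1% of their unique reads. With the let-7 family included the pair held 5.74% of the uridylated reads of all miRNA windows, in which mir-320a ranked 6th and mir-484 ranked 7th. The 10 let-7 and mir-98 windows, whose precursors are the best studied DIS3L2 targets, had a median U+ fraction of 74.5%. They ranged widely, from 2.17 to 94.8%.

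The pair stood apart in depth, while its U+ fractions lay within the range of the comparison set, 46.8 to 100% with a median of 70.2%. A U+ fraction over 50% was found in both windows, in 94.1% of the comparison windows and in 83.7% of all windows, so that share is no mark of the pair. The authors selected windows for evidence of a frequency over 25%, which favours high values, although 36 of the 1533 windows lie under 25% in the summed counts. That evidence depends on depth, so a window of few reads needed a higher U+ fraction to be listed than a deep one. Shallow comparison windows of low fraction can thus be missing, and how far this shaped the order below was not tested. Of the 17 comparison windows, 11 had a lower U+ fraction than mir-320a and 8 a lower one than mir-484.

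Each member was then compared with each comparison window by Fisher's exact test on the reads, two-sided, with Benjamini-Hochberg adjustment over 35 pairs, the pair itself included. mir-320a differed from 7 of the 17 windows (41.2%), of which 4 were higher and 3 lower. mir-484 differed from 5 (29.4%), of which 4 were higher and 1 lower. With every count divided by 10, mir-320a differed from 1 window, mir-7706, and mir-484 from 2, mir-7706 and mir-6821. With a Bonferroni adjustment mir-320a differed from 3 and mir-484 still from 5. At full counts both members lay below mir-1180, mir-15a, mir-6821 and mir-18b. The selection by depth bears most on the shallowest of these, mir-1180 (26 reads) and mir-15a (38 reads). The clearest difference of the 4 was from mir-6821, with 463 uridylated among 514 unique reads (90.1%). Against mir-6821 the difference of mir-484 was -20.3 points (interval -23.2 to -16.8, adjusted Fisher p = 4.6e-23). Both lay above mir-7706, the deepest comparison window, with 434 among 927 reads (46.8%), by 28.0 points for mir-320a (interval 24.3 to 31.6) and 23.0 for mir-484 (interval 19.3 to 26.7).

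The nearest windows in the order could not be separated from the pair. Directly above mir-320a stood mir-7109 (76.2% of 21 reads) and the shallower window of mir-4741 (81.8% of 33 reads), and directly below it mir-6807 (73.2% of 82 reads) and mir-4519 (71.9% of 96 reads). For mir-320a against these 4 windows the adjusted Fisher p was 0.618 or higher, and the interval against mir-6807 ran from -6.95 to 12.2 points. Around mir-484 stood mir-4519 and mir-4734 (70.2% of 47 reads) above, and mir-7845 (68.0% of 25 reads) and the deeper window of mir-4741 (67.1% of 155 reads) below, with an adjusted Fisher p of 0.646 or higher. At 21 to 155 reads, the comparison windows had too few reads to show differences of a few points.

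**Figure D2:**
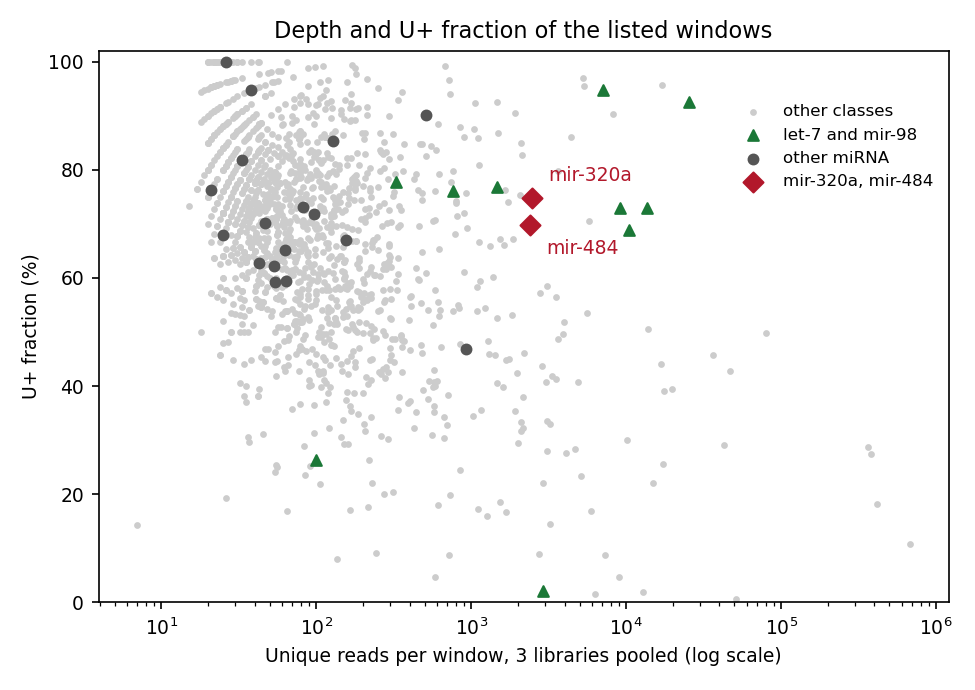
Unique reads per window over the 3 pooled libraries (log scale) against the U+ fraction (%), for the 1533 listed windows. The diamonds of mir-320a and mir-484 lie at 2456 and 2386 reads, to the right of all 17 other miRNA windows outside let-7 and among the upper values at their depth.

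Set against windows of similar depth from all RNA classes, the U+ fractions of the pair were above the median. The table held 70 windows with at least 1000 and under 5000 unique reads. These were 25 mRNA, 14 tRNA, 7 5S rRNA, 7 snRNA, 7 miscellaneous RNA, 4 lncRNA, 2 snoRNA and 4 miRNA windows, the pair included. Their median U+ fraction was 48.5%, a value over mixed classes that was not split by class. Under the selection described above deep windows of lower fraction could be listed, and how far this lowered the median was not tested. The other miRNA windows among them were let-7d (76.8% of 1463 reads) and a mir-98 window (2.17% of 2909 reads). Of these windows, 14 had a higher U+ fraction than mir-320a and 16 a higher one than mir-484. Among all windows, 60.8% had a lower U+ fraction than mir-320a and 49.0% a lower one than mir-484, while 96.3% had fewer unique reads than either. These are descriptions, and no test was made over windows.

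The windows of mir-320a and mir-484 covered opposite ends of their hairpins. The mir-320a hairpin (82 nt, chr8:22102475-22102556) lay in its window with its last 25 bases only, from base 58 to base 82, and the other 25 bases of the window lay past the annotated 3′ end. The mir-484 hairpin (79 nt) lay in its window with 49 bases, from base 1 to base 49, which hold the whole mature miR-484 strand at bases 8 to 29. The remaining 30 bases of the mir-484 hairpin, with its annotated 3′ end, lay in the next window, which is not listed. Reads were assigned to windows of 50 nt, and the base at which each tail begins is unknown. Among the 17 comparison windows, 11 held the 3′ end of the hairpin, as that of mir-320a did, 3 held the 5′ end, as that of mir-484 did, and 3 held neither. Of the 10 let-7 and mir-98 windows, 4 held the 3′ end and 0 the 5′ end.

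**Figure D3:**
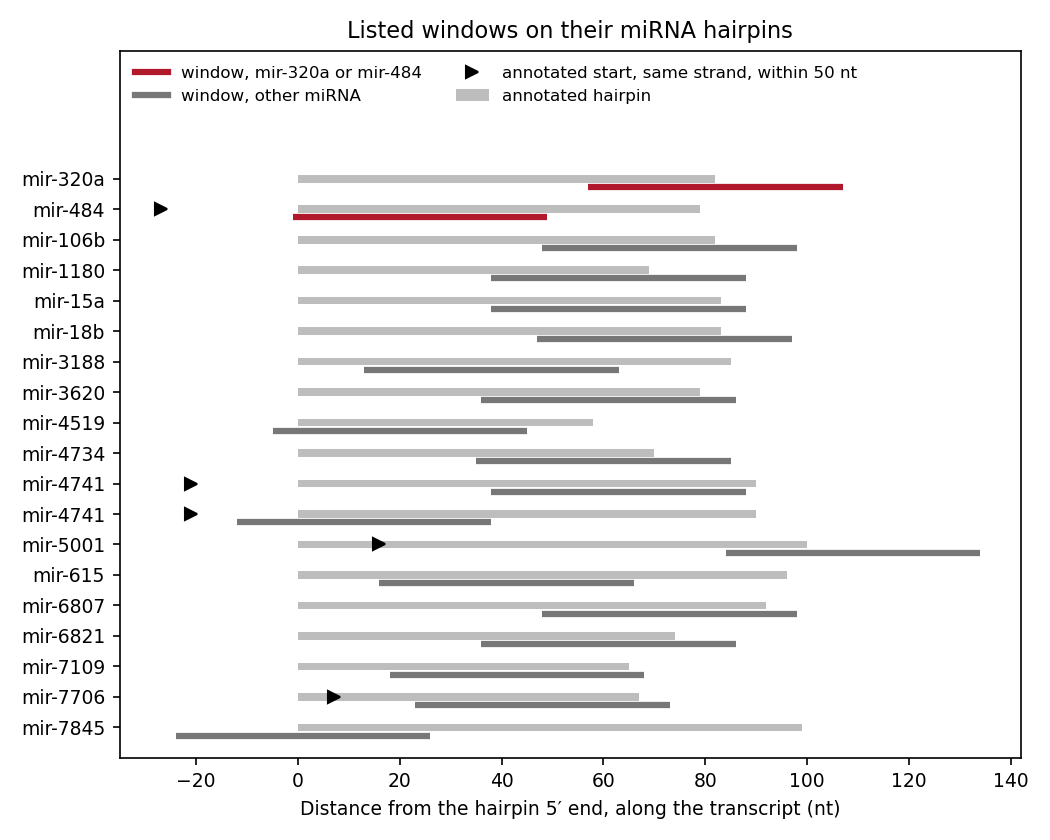
Position of the listed windows on their hairpins, as distance from the hairpin 5′ end in nt along the transcript. Light bars are hairpins, dark lines the 50 nt windows, and arrowheads annotated transcription starts on the same strand within 50 nt of the hairpin 5′ end. The window of mir-484 runs from the 5′ end to base 49, and that of mir-320a from base 58 to 25 nt past the 3′ end.

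The label of the pair, hairpins that begin at a transcription start, was checked against GENCODE release 44 on GRCh37. For mir-484 the annotation came close. Its hairpin begins 27 nt past the start of NDE1 (ENSG00000072864), a gene for a centrosomal protein. The hairpin lies in the non-coding exon 1 (661 nt) of transcript ENST00000396355. Whether RefSeq also lists an NDE1 start before the hairpin was not tested. A RefSeq start of NDE1 lies 10 nt past the 3′ end of the hairpin. The 300 bases around that RefSeq start are shown because both listed windows at this locus lie within them, with the hairpin in capitals (GRCh38.p14, chr16:15643132-15643431, plus strand).
NDE1 promoter: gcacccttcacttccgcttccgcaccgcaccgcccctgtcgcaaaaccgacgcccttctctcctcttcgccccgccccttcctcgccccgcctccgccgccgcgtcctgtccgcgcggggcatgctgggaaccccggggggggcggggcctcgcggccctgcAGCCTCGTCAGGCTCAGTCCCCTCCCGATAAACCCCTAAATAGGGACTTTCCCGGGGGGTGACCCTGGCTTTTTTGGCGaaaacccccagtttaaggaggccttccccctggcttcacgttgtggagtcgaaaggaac
For mir-320a no start of another transcript on its strand was annotated nearby, the nearest being that of PHYHIP, 12942 nt further downstream. On the opposite strand, POLR3D, a subunit gene of RNA polymerase III, starts 90 nt from the 5′ end of the mir-320a hairpin. For mir-484 the nearest opposite start is that of MARF1, at 140 nt. An opposite-strand start within 150 nt was found for both hairpins and for 3 of the 16 comparison hairpins.

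A hairpin 5′ end within 50 nt of an annotated start on its strand was found for mir-484 and for 3 of the 16 comparison hairpins. mir-4741 begins 21 nt past the start of RBBP8, mir-7706 begins 7 nt before that of AKAP13, and mir-5001 begins 16 nt before that of TIGD1. These hairpins are shown beside that of mir-484 because the annotation places them at a start as well, again with the bases of the listed window in capitals.
hsa-mir-4741 hairpin: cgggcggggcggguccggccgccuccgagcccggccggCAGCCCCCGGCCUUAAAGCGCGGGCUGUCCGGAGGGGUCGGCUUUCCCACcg
hsa-mir-7706 hairpin: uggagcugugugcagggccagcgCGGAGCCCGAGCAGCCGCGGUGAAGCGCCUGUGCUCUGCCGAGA
hsa-mir-5001 hairpin: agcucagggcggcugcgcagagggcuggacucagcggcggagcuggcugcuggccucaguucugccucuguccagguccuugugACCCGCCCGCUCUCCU
For mir-4741 the deeper of its 2 windows is marked. The U+ fractions of these hairpins were 67.1 and 81.8% for the windows of mir-4741, 46.8% for mir-7706 and 62.8% for mir-5001, against 69.8% for mir-484. Only the difference from mir-7706 passed the adjusted test (23.0 points, adjusted Fisher p = 5.94e-33). The remaining comparison hairpins began farther from a start, with a median over all 16 of 2218.5 nt.

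A window at the NDE1 start itself was listed as well. The window chr16:15737100-15737149, which adjoins that of mir-484 and was assigned to NDE1 as mRNA, ends before the first base of the hairpin. It is shown with the bases from the GENCODE start of NDE1 on in capitals.
NDE1 window: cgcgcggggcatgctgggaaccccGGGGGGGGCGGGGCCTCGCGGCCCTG
Of its 338 unique reads 205 carried a tail, which gives a U+ fraction of 60.7% (interval 55.4 to 65.7%). The window of mir-484 held 7.06 times as many unique reads. Tailed reads were therefore counted in both adjoining windows, most of them in that of mir-484. The U+ fraction of mir-484 was 9.17 points higher (interval 3.78 to 14.8, Fisher's exact test, two-sided, p = 0.000876, adjusted over 2 NDE1 windows 0.00175). Windows that adjoin can count the same read, and whether reads ran across this border is unknown. With all reads of the NDE1 window taken from those of mir-484, the latter had 71.3% and the difference was 10.7 points (Fisher's exact test, two-sided, p = 0.000118). As the NDE1 window had the lower U+ fraction, this removal could only widen the difference. The effect of taking shared reads from the NDE1 window instead was not tested. With all counts divided by 10 the difference was 11.1 points and did not pass (Fisher's exact test, two-sided, p = 0.236). A second NDE1 window, chr16:15744100-15744149 at a downstream start of the gene, had 60 uridylated among 79 unique reads (75.9%) and was not separated from mir-484 (difference -6.13 points, interval -14.4 to 4.51, Fisher's exact test, p = 0.264). No other window was listed within 1000 nt of mir-484 and none within 1000 nt of mir-320a, and POLR3D had 0 windows.

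Like many mRNA windows of the table, the window of mir-484 lay just past a GENCODE start, with its midpoint 50.5 nt from that of NDE1. It lay before the RefSeq start shown above. A start was found for all but 23 of the 1136 mRNA windows, and 884 windows had their midpoint within 150 nt of it. Their median U+ fraction was 70.6% (quartiles 59.8 and 80.6%) and their median depth 61 unique reads. The selection by depth described above applied to these windows as well. Of these windows, 47.3% had a lower U+ fraction than mir-484 and 59.6% a lower one than mir-320a. The windows of both members thus fell near the middle of the start-site mRNA windows in U+ fraction. In depth they did not, as 3 of the 884 windows had more unique reads than either. The authors could not exclude that the U+ reads of miR-484 and miR-320 come from short RNAs of transcription starts. Whether the reads counted here come from miRNA precursors or from such RNAs was not tested.

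**Figure D4:**
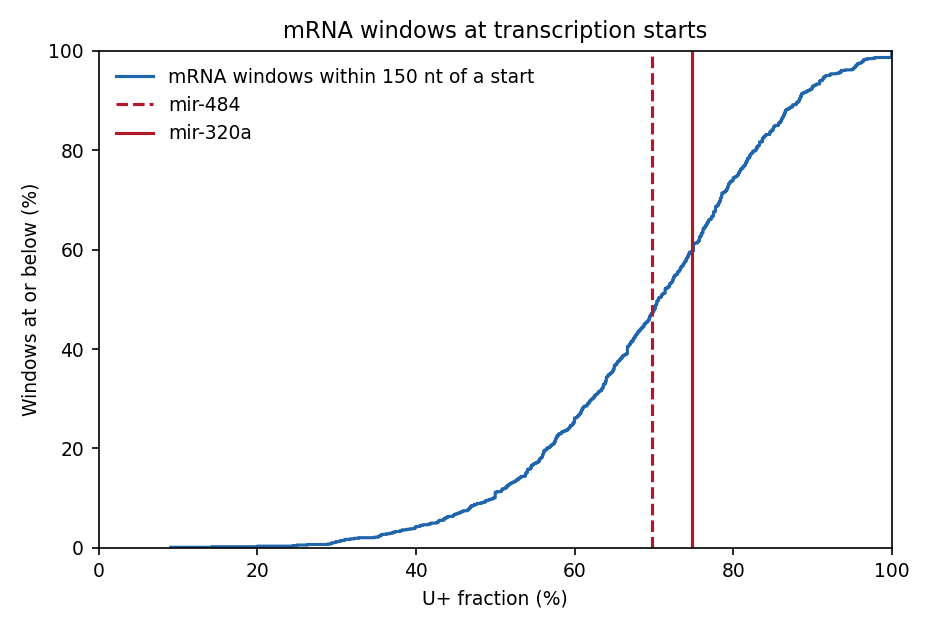
Cumulative share (%) of the 884 mRNA windows within 150 nt of an annotated start at or below a given U+ fraction (%), with vertical lines for mir-484 and mir-320a. The lines cross the curve near its middle, with 47.3% of the windows below mir-484 and 59.6% below mir-320a.

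In composition and predicted folding both hairpins lay within the range of the comparison set. GC content was 59.8% in mir-320a and 59.5% in mir-484, against a median of 70.1% and a range of 42.2 to 84.3% in the 16 comparison hairpins, of which 3 were lower than either. The predicted minimum free energy was -47.6 kcal/mol for mir-320a and -32.5 for mir-484, against a median of -41.6 and a range of -58.2 to -20.9. Of the 16 comparison hairpins, 5 had a lower predicted energy than mir-320a and 10 a lower one than mir-484. A search of GRCh37 for near-identical copies of the windows found 0 for each member and 0 for the 17 comparison windows.

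Encoded T runs differed between the members. The window of mir-320a and the 50 nt past it held no T run longer than 2, whereas the mir-484 hairpin holds a run of 6 U at bases 70 to 75, 21 bases past the end of its window. The longest run in the same stretch of the comparison windows was 1 to 5 T. A read is called uridylated for T that the genome does not encode, and whether reads of mir-484 end in this encoded run is unknown.

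Other genes of the pathway were searched for in the table. Of 27 genes for the processing, export, tailing and decay of miRNA precursors, 1 had a window, DDX5, a helicase that assists Drosha, with 20 uridylated among 44 unique reads (45.5%, interval 31.7 to 59.9%). Of all protein-coding genes in GENCODE 4.94% had an mRNA window, so 1 of 27 is near the share of genes at large. Drosha, Dicer, exportin 1, PHAX, TUT4, TUT7 and DIS3L2 itself had none. Of 13 other hairpins, 6 mirtrons that bypass Drosha through splicing and 7 relatives of mir-320a, 0 were listed. Of all miRNA genes in GENCODE 0.69% had a listed window, so a count of 0 among 13 says nothing particular to these hairpins.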

How the data were processed

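CLIP was done in 3 libraries of HEK293T-Rex cells (labelled HEK293) overexpressing DIS3L2 D391N. The authors aligned reads to hg19 with Segemehl (the submitters' processing notes also name Subread), remapped reads after trimming 3′ T runs, and called reads with at least 4 untemplated T uridylated. Per the methods, windows of 50 nt with under 20 reads were discarded, and those were kept whose posterior for a uridylation frequency over 0.25, taken per library and multiplied, was at least 0.95. In the summed columns 11 listed windows have under 20 unique reads and 36 a fraction under 0.25, none of them compared with the pair by a test. The deposited values are raw counts of unique and uridylated reads per window, summed over the libraries by the authors, with 2686158 unique reads in the listed windows. Depth per library is unknown.

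Here, hairpins came from GENCODE release 44 on GRCh37 (23 of 29 miRNA windows) or from an exact match of the RefSeq hairpin (6 windows). mRNA starts came from the listed transcript (990 windows) or the listed gene (123). Fractions were compared by Fisher's exact test and Newcombe intervals (scipy 1.17.1), which were tested on simulated data. Near-identical copies (45 nt or more, 2 differences or fewer) were sought with blastn 2.17.0, and folding energies came from RNAfold 2.7.2. Named windows were the pair, the nearest 2 on each side in U+ fraction, the 3 comparison windows with the most uridylated reads, windows within 1000 nt, NDE1 and POLR3D. Hairpins at a start, and the further comparison windows that both members differed from, were named after their values were seen. The members and lists were chosen with earlier results of these data known. The NDE1 comparison was added after the table had been seen.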

Additional observations from a re-analysis of the deposited data

How the results depend on the processing

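Counts were pooled, so no library could be left out. No paired analysis was possible because the series has 1 group. Of 22 alternatives, 10 left the call or value as it was within the limits set, 7 lost a call or lowered a count of calls by over 1.5 times, and 5 moved a value. A direction was judged only for the differences in U+ fraction, and none reversed. Their alternatives scaled all counts, added a few reads or took reads of lower U+ fraction from mir-484, so a reversal was hardly possible. Dividing all counts by 10 left differences of 4.92 points between mir-320a and mir-484 and 11.1 points between mir-484 and the adjoining NDE1 window (the latter alternative chosen after seeing the data), both no longer past the threshold, and lowered the comparison windows that differed to 1 for mir-320a and 2 for mir-484. A Bonferroni adjustment left 3 for mir-320a and all 5 for mir-484. A minimum of 100 unique reads left only mir-6821, mir-18b, mir-7706 and the deeper window of mir-4741 to compare. mir-320a differed from all 4 of these, and mir-484 from 3, all but mir-4741. These counts are thus lower because fewer windows were compared, and the share that differed was higher than in the full set. The share of the pair was 67.1% of unique reads, and 5.74% of uridylated reads once let-7 and mir-98 were included. Window starts read as 0-based put 26 hairpin bases of mir-320a and 50 of mir-484 in the window. Within 50 nt of a start, 43.9% of mRNA windows were below mir-484. Depth also limits the comparison set, whose median window had 54 unique reads.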
